A study of Rattus norvegicus with 61 samples.

Results

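The regions described here are stretches of rat islet chromatin where H3K27me3 differed between intrauterine growth retarded (IUGR) and control rats at 10 weeks, which lay over a transcription start site (TSS), and which had no listed counterpart at 2 weeks. They were chosen from the authors' list of differential regions: a 10-wk H3K27me3 region with a distance of 0 to the TSS of a gene was kept when no 2-wk H3K27me3 region was listed within 5000 bp of that TSS. This left 938 regions over 962 genes, out of 11877 listed 10-wk H3K27me3 regions, of which 1142 lay over a TSS, and 17411 listed genes. The 2-wk list was shorter. On chromosomes other than X it held 4948 H3K27me3 regions, against 11777 at 10 weeks. Of the 16818 genes there, 8.69% had a 2-wk region within 5 kb, so most genes met that part of the rule. Because the 10-wk and 2-wk H3K27me3 lists chose the genes, the counts and distances of these regions are a description of the selection. "10-wk-only" is used below as short for this rule. It does not say that the mark was absent at 2 weeks, only that no difference was listed there. Likewise, a gene said below to have H3K4me3 or H3K27Ac had a listed differential region of that mark. A gene said to have neither had no listed difference. Neither wording says whether the mark itself was present.

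The study profiled H3K4me3, H3K27me3 and H3K27Ac by ChIP-Seq in pancreatic islets of Sprague Dawley rats. The IUGR group came from dams whose uterine arteries were ligated on both sides late in pregnancy, and the control group from dams with sham surgery. H3K27me3 was measured in 3 control and 3 IUGR libraries at 10 weeks, and in 3 control and 2 IUGR libraries at 2 weeks. H3K4me3 and H3K27Ac had 3 libraries per group, except H3K4me3 in 2-wk controls with 2, and 27 of the 61 libraries were inputs. Each sample pooled the islets of littermates, of both sexes at 2 weeks and of males only at 10 weeks, so that age and sex cannot be told apart in any contrast between the ages. The deposited table gives the position of each differential region and no value per library. Depth, the spread between libraries and the islet identity of the samples, which would be checked on marker levels, could therefore not be examined, and no result below has a replicate error or a test. Whether H3K27me3 was higher or lower in IUGR islets was not analysed here, since the table gives this only as the authors' own comparison. In whole islets, a change in the share of a cell type and a change of the mark within its cells cannot be told apart.

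H3K27me3 is laid down by the Polycomb repressive complex 2, whose catalytic subunits are Ezh1 and Ezh2, and is read by the Polycomb repressive complex 1. Over a TSS it goes with silent or poised genes, typically regulators of development, genes of other lineages and signalling genes. H3K4me3 marks active or poised promoters, and H3K27Ac, which occupies the same lysine as H3K27me3 and so cannot share a histone tail with it, marks active promoters and enhancers. In beta cells, Polycomb silencing keeps genes of other cell types off.

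Among the 962 genes were 11 that carry the identity and secretory work of the beta cell. Of these, 5 had a promoter in the RefSeq promoter table, and their sequences are shown because the table of regions itself holds no bases. They run from 250 bases before to 50 after the annotated start, 5′ to 3′, on the GRCr8 assembly, which differs from the rn6 assembly of the regions. The start in RefSeq was not compared with the start used by the authors. Each CpG, the dinucleotide whose density marks many Polycomb-bound promoters, is in capitals.

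Glp1r, chr20:8973143-8973442, plus strand: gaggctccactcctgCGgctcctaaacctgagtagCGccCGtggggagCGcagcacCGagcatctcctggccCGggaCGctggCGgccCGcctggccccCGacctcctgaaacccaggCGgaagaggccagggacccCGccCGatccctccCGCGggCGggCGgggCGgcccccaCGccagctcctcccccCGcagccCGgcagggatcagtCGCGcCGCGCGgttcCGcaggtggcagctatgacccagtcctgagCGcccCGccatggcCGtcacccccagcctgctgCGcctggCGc
Nkx2-2, chr3:155075573-155075872, minus strand: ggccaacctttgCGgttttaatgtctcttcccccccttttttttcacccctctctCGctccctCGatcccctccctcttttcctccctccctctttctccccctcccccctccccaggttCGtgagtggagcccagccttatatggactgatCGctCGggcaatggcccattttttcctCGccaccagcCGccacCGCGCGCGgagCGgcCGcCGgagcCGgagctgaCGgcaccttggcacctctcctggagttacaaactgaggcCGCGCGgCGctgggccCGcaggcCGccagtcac
Pax6, chr3:112590346-112590645, plus strand: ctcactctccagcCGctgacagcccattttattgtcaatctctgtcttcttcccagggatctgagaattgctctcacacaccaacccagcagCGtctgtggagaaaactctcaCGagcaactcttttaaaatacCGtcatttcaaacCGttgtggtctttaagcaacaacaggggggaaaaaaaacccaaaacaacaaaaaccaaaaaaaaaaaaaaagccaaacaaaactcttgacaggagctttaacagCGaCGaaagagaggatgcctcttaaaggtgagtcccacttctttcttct
Chgb, chr3:140496462-140496761, plus strand: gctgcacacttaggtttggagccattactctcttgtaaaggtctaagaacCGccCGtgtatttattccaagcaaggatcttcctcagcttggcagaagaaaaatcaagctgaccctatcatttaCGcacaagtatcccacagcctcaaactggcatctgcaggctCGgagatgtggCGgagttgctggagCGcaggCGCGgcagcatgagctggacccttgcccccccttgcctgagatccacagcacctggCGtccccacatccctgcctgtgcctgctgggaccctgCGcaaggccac
Scg3, chr8:85322435-85322734, minus strand: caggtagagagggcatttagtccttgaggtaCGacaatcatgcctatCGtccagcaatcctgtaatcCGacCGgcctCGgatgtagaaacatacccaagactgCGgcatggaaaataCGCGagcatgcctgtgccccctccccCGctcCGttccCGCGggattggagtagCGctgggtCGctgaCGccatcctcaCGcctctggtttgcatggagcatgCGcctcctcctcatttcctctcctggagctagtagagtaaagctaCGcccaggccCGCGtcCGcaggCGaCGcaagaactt

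The Glp1r promoter held 32 CpGs and those of Nkx2-2 and Scg3 held 23 each, while Chgb held 10 and Pax6 held 7. Over the 24206 promoters kept, called all promoters here, the median was 8 CpGs, so that 4 of these 5 lay above it and Pax6 lay below. Glp1r had more CpGs than 90.8% of all promoters and Pax6 more than 45.4%. The 5 motifs searched on both strands, none of which contains another, were the GC box (GGGCGG), the CCAAT box, the TATA box (TATAAA), the E-box of USF and MYC factors (CACGTG) and an ETS factor motif (CCGGAAG). The GC box, found in 35.9% of all promoters, was present in Glp1r and Chgb. The CCAAT box, found in 37.8%, was present in Scg3. The TATA box was found in 14.3% of all promoters, the E-box in 6.74% and the ETS motif in 9.49%, and none of these in the 5 windows shown. The windows of Nkx2-2 and Pax6 held none of the 5 motifs. A kept promoter matched by symbol for 616 of the 962 genes (64.0%), too few for a summary over the whole set.

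A further 12 of the genes were microRNA genes, of 442 listed (2.71%, against 5.53% of all listed genes). For these the TSS of the table may be the start of the annotated hairpin and not that of its transcript. Mature sequences were found in RefSeq for 11 of the 12, and the arms shown are from the microRNAs with the best known role in islets and from those that share a seed, the bases at positions 2 to 8 that pair with targets, which are in capitals. The microRNAs were chosen for display after their values were seen.

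rno-miR-375-3p: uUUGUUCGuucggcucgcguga
rno-miR-34b-5p: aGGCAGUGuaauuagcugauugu
rno-miR-34c-5p: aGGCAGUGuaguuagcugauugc
rno-miR-449c-5p: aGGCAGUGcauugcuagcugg
rno-miR-129-5p: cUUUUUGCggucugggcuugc

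Mir375, an abundant islet microRNA and a regulator of insulin secretion and beta cell mass, had its 10-wk H3K27me3 region on chromosome 9 from 82160801, over a start at 82161790 (rn6). A differential H3K4me3 region at 10 weeks and a differential H3K27Ac region at 2 weeks also lay over this start, and the nearest 2-wk H3K27me3 region was 16290 bp away. Mir7a-2, a gene of the islet-rich miR-7 family whose symbol is not official in RefSeq, had its region at chr1:140573301-140576500, an H3K4me3 region at 10 weeks 406 bp away and an H3K27Ac region at 2 weeks 506 bp away. The 5p arms of Mir34b, Mir34c and Mir449c have the same seed, GGCAGUG. Mir34b and Mir34c lie in the same H3K27me3 region on chromosome 8, from 55491501, and so are a single observation, while Mir449c had its own on chromosome 2, at chr2:44895301-44896300. None of these 3 had a region of H3K4me3 or H3K27Ac within 5 kb at either age. Mir129-1 on chromosome 4 and Mir129-2 on chromosome 3 encode the same 5p arm, and both were 10-wk-only genes.

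Most of the 938 regions covered a single gene. A region covered the TSS of 1 gene in 916 cases, of 2 genes in 20 and of 3 genes in 2. An end could be derived for 249 regions, from their distance to a neighbouring gene, and these were 1000 to 4300 bp long with a median of 1400 bp. The TSS lay a median of 734 bp from the lower edge of the region. The 2 regions over 3 genes were in families of near-identical copies. The first, on chromosome 10 from 87961301, covered Krt31, Krt33a and Krt33b, hair keratins listed with the same start at 87962846. The second, on chromosome 15 from 5641101, covered 3 copies of the Spetex family, whose symbols are not official in RefSeq, and also a further copy which had a 2-wk region within 5 kb and so was not a 10-wk-only gene. It is the single region shared with the 211 genes that had H3K27me3 regions at both ages. Reads from such copies may be placed on any of them or removed as multi-mapped, so these genes are uncertain, as are Rn18s, Rn45s and Rn28s, ribosomal RNA genes of a repeated array, named after their values were seen.

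The distance to the nearest 2-wk H3K27me3 region, which the rule used, was spread widely. It had a median of 98522 bp and ran from 5009 to 3521388 bp. A 2-wk region lay between 5 and 10 kb away in 52 genes (5.41%, against 3.34% of all listed genes beyond 5 kb) and between 10 and 20 kb in 74 (7.69%, against 6.51%). The 5 genes just inside the limit were Mir129-2 at 5009 bp, Col5a1 at 5411 bp, Tor3a at 5438 bp, Lyl1 at 5607 bp and Pou2f2 at 5611 bp. The 5 just outside were Vom2r41 at 4971 bp, Kcnk2 at 4926 bp, Vom2r40 at 4893 bp, Rin3 at 4820 bp and Fbxo2 at 4819 bp. On the other limit, a 10-wk region missed the TSS of Gpr84 by 3 bp, of Cfi by 4 bp and of Tp53i11 by 5 bp. These near misses show that neither limit falls in a gap of the distances.

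**Figure D1:**
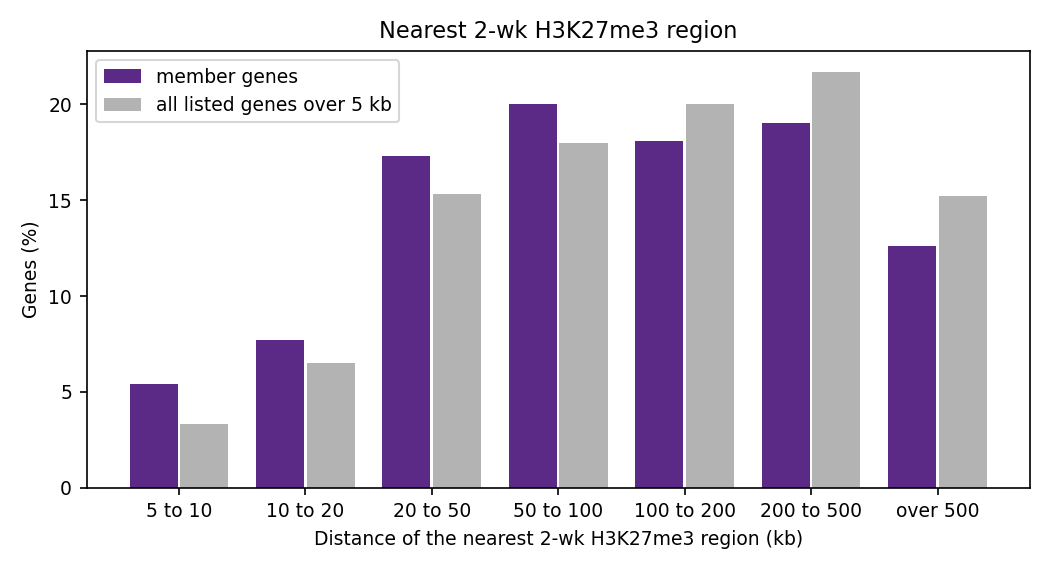
Distance of the nearest listed 2-wk H3K27me3 region (classes in kb) for the 962 genes with a 10-wk-only region (purple) and for all listed genes beyond 5 kb (grey), as percent of each set. Of the 10-wk-only genes, 20% lay 50 to 100 kb from a 2-wk region and 12.6% over 500 kb.

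Of all listed genes, 6.74% had a 10-wk H3K27me3 region over the TSS and 5.53% met the whole rule. Against this background, the 25 gene lists examined ranged widely. The list of beta cell identity and insulin secretion held the largest share of 10-wk-only genes among the 25, with 11 of 44 (25.0%), but this order holds for the 5 kb limit on the 2-wk distance. With a limit of 20 kb it held 6 of 44 (13.6%, against 4.80% of all genes), below the protocadherins (20.4%), mesenchymal markers (19%), endothelial markers (16.7%), the ligands of the Wnt to FGF families (15.1%) and the G protein-coupled receptors (13.7%). The ribosomal protein list held 0 of 83 and the mitochondrial respiratory chain list 0 of 95. Lists overlap, so that Pax6, Nkx2-2, Glp1r and Gipr each stand in more than 1, and 760 of the 962 genes were in none. The lists were compiled with earlier results of these data known, so the shares describe these genes and are not independent evidence about a pathway.

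**Figure D2:**
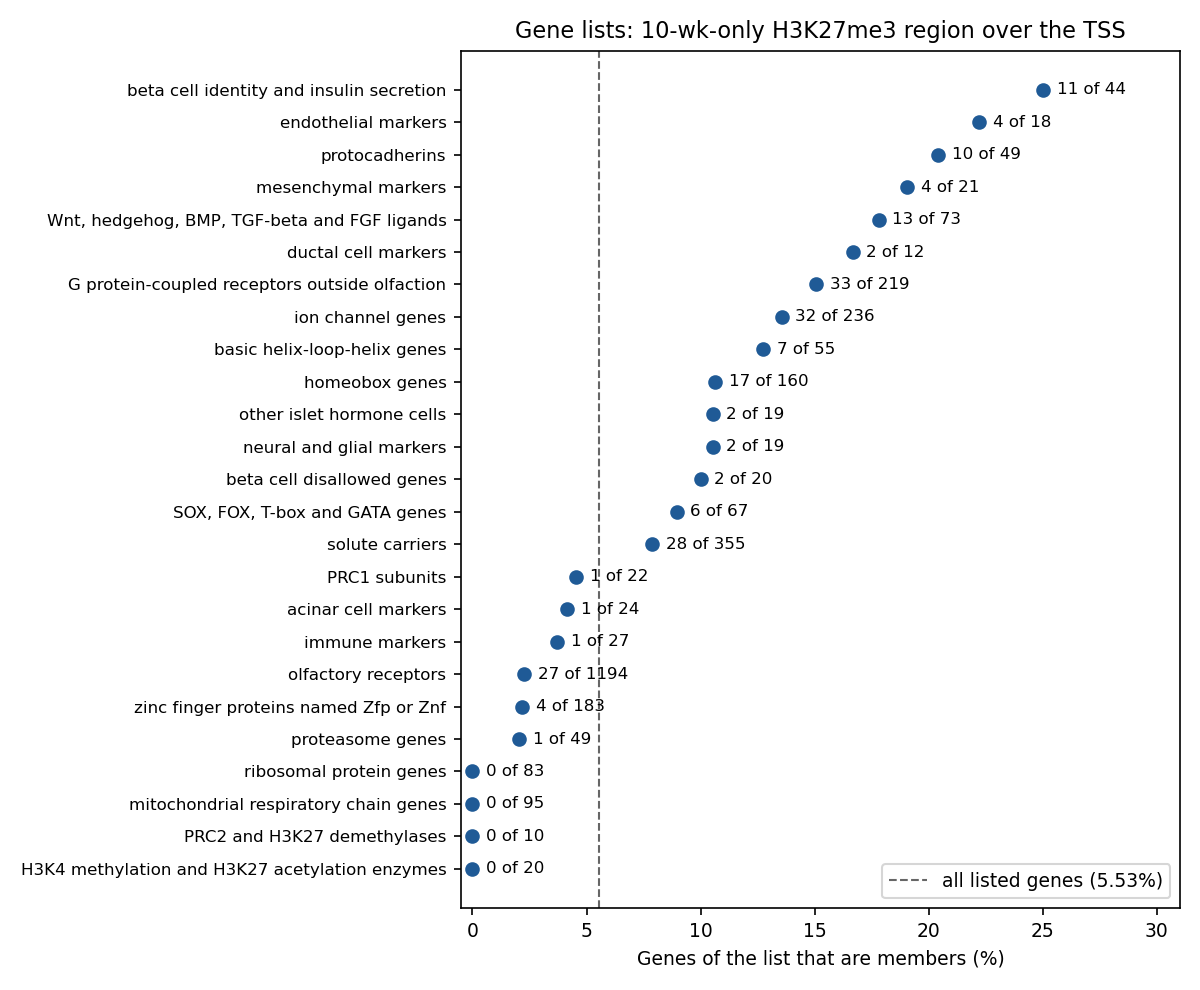
Share of each gene list (percent of its listed genes) with a 10-wk-only H3K27me3 region over the TSS. Each point is a list with its count beside it, and the dashed line is the 5.53% of all listed genes. The beta cell list lies farthest to the right at 25.0%, a place it loses with a 2-wk limit of 20 kb (13.6%), and 4 lists lie at 0.

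In the beta cell list, the transcription factors were Pax6 and Nkx2-2, both needed to form and keep islet endocrine cells. The Pax6 region began at 95706901 on chromosome 3, with the TSS at 95707386. Its nearest differential H3K4me3 and H3K27Ac regions at 2 weeks were 1316 and 1386 bp away, whereas at 10 weeks they were 14616 and 473786 bp away. The Nkx2-2 region began at 141409401 on the same chromosome, with the TSS at 141411170. An H3K27Ac region lay over this TSS at 2 weeks, and an H3K4me3 region lay 1470 bp from it at 10 weeks. Nkx2-2 had its nearest 2-wk H3K27me3 region at 6432 bp, close to the limit of the rule.

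Glp1r and Gipr, the receptors for the incretin hormones that raise glucose-stimulated insulin secretion, were both 10-wk-only genes. The Glp1r region began at 9584501 on chromosome 20, with the TSS at 9586075, and the nearest 2-wk H3K27me3 region was 166227 bp away. Glp1r had an H3K4me3 region at 2027 bp at 10 weeks and an H3K27Ac region at 3827 bp at 2 weeks. Gipr had differential H3K27Ac close to its TSS at both ages, 123 bp away at 10 weeks and 23 bp away at 2 weeks, and no H3K4me3 region within 5 kb.

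Abcc8 encodes the sulphonylurea receptor subunit of the beta cell ATP-sensitive potassium channel. Its H3K27me3 region began at 102190801 on chromosome 1, with H3K4me3 and H3K27Ac regions at 1215 and 1415 bp at 10 weeks and an H3K27Ac region over the TSS at 2 weeks. The gene of its partner subunit, Kcnj11, was not a 10-wk-only gene, its nearest 10-wk region being 2075 bp from the TSS (a gene named after its value was seen).

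The remaining members of the list belong to the secretory granule and its release. Chga and Chgb encode granins, acidic proteins of the granule core. Both had differential H3K4me3 near the TSS at 2 weeks, 676 bp away for Chga and 242 bp for Chgb, and again at 10 weeks, 4876 and 742 bp away, and neither had H3K27Ac within 5 kb. Scg3, which binds chromogranin A and helps to form granules, and Pcsk1, a convertase that cuts proinsulin, were named after their values were seen. Scg3 had an H3K4me3 region over the TSS at 10 weeks and 736 bp from it at 2 weeks, and Pcsk1 had H3K4me3 regions 3791 and 2491 bp away at 10 and 2 weeks.

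Snap25 encodes a SNARE protein of granule fusion. Its region was chr3:129697201-129698700, and it carried an H3K4me3 region over the TSS and an H3K27Ac region 23 bp away at 2 weeks, and an H3K4me3 region 723 bp away at 10 weeks. Syt13, an atypical synaptotagmin found in endocrine cells, had differential regions of all 3 marks over its TSS at 10 weeks. Of the 11 genes, 9 had a 10-wk H3K4me3 region within 5 kb, 3 a 10-wk H3K27Ac region, 6 a 2-wk H3K4me3 region and 6 a 2-wk H3K27Ac region. The same held for 31, 8, 20 and 26 of all 44 genes on the list. Over all 962 10-wk-only genes the shares were 50.5%, 15.1%, 16.1% and 21.3%, and over all listed genes 57.4%, 25.0%, 12.6% and 26.3%.

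**Figure D3:**
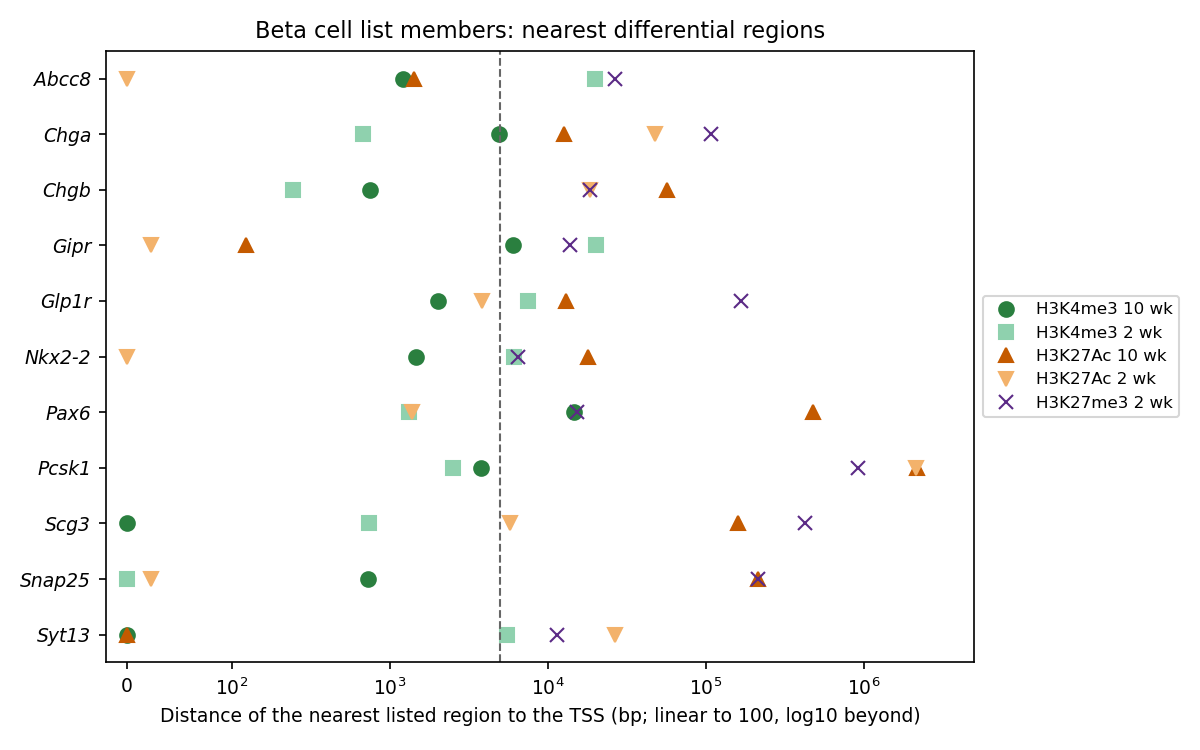
Distance in bp from the TSS of the 11 beta cell genes to the nearest listed region of each other mark and age (linear to 100 bp, log10 beyond). Circles and squares are H3K4me3, triangles H3K27Ac and crosses 2-wk H3K27me3, and the dashed line is 5000 bp. Every cross lies to the right of the line because the rule required it, and Syt13 has both 10-wk marks at 0.

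Of the other genes on this list, 4 (9.09%, against 1.21% of all listed genes) had a 10-wk H3K27me3 region over the TSS and a 2-wk region within 5 kb, so that a share above that of all genes was also seen in this list for regions present at both ages. They were Neurod1, Nkx6-1, Mnx1 and Pcsk2, at 2-wk distances of 617, 1164, 8 and 611 bp. The nearest 10-wk region was 14134 bp from the TSS of Ins2, 67884 bp from that of Ins1 and 28291 bp from that of Pdx1. These genes were named after their values were seen.

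Among genes of the other islet hormone cells, 2 of 19 (10.5%, against 5.53% of all listed genes) were 10-wk-only. With a 2-wk limit of 20 kb this count was 1 (5.26%, against 4.80% of all genes). Of the 2 genes, Loxl4, a lysyl oxidase listed as an alpha cell marker, had no differential region of either other mark within 5 kb. Of the genes normally kept silent in beta cells, 2 of 20 (10.0%, against 5.53%) were 10-wk-only. Ndrg2 had differential regions of all 3 marks over the TSS at 10 weeks. The chemokine gene Cxcl12 had no differential region of either other mark within 5 kb.

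Transcription factor genes were examined in 4 lists, 3 of families that act in development and 1 made by gene name. Of 160 homeobox genes, 17 (10.6%) were 10-wk-only, of which 8 (47.1%, against 50.5% of all 10-wk-only genes) had H3K4me3 within 5 kb at 10 weeks. With a 2-wk limit of 20 kb the homeobox count was 10 (6.25%, against 4.80% of all genes). A further 13 homeobox genes (8.12%, against 1.21% of all listed genes) had H3K27me3 regions at both ages. This share was 9.09% for basic helix-loop-helix genes, 8.22% for the Wnt to FGF ligands, 5.93% for ion channels and 5.02% for G protein-coupled receptors. It was 4.48% for SOX, FOX, T-box and GATA genes, 1.09% for zinc finger genes, 0.845% for solute carriers and 0 for protocadherins. Emx2 had H3K4me3 at 264 bp and H3K27Ac at 564 bp at 10 weeks and H3K4me3 at 3538 bp at 2 weeks. Lhx1 had an H3K27Ac region over the TSS at 2 weeks, at 3493 bp at 10 weeks, and an H3K4me3 region at 1193 bp at 2 weeks. Hlx had H3K4me3 over the TSS at 10 weeks, and Hoxd1 had H3K27Ac over it at 2 weeks. Barx1 had H3K4me3 at 1896 bp at 10 weeks.

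Of the SOX, FOX, T-box and GATA genes, 6 of 67 (8.96%, against 5.53% of all genes) were 10-wk-only. With a 2-wk limit of 20 kb this count was 4 (5.97%, against 4.80% of all genes). Foxd1 and Tbx21 had H3K4me3 over the TSS at 10 weeks. Gata5 had H3K27Ac over the TSS at both ages, Tbx3 had it over the TSS at 2 weeks, and Sox18 had H3K4me3 at 2663 bp at 10 weeks. Foxn4 had no differential region of either mark within 5 kb at either age. Of the basic helix-loop-helix genes, 7 of 55 (12.7%) were 10-wk-only, and in 5 of these 7 (71.4%, against 15.4% of all 10-wk-only genes and 29.5% of all listed genes) an H3K4me3 region lay over the TSS at 10 weeks. These were Ascl2, Hes5, Hey1, Lyl1 and Tcf15, of which Hes5 and Hey1 are targets of Notch signalling. All but Hey1 also had H3K4me3 within 5 kb at 2 weeks, with Tcf15 at 0 bp, Hes5 at 321 bp, Lyl1 at 395 bp and Ascl2 at 1493 bp. Msc and Msgn1 had no differential region of either mark within 5 kb. Of the zinc finger genes named Zfp or Znf, 4 of 183 (2.19%, below the 5.53% of all genes) were 10-wk-only, namely Zfp13, Zfp385a, Zfp385d and Zfp579.

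Among ligands of the Wnt, hedgehog, BMP, TGF-beta and FGF families, 13 of 73 (17.8%) were 10-wk-only. Tgfb1, a growth factor that restrains proliferation and promotes matrix formation, had both other marks within 5 kb at both ages. Its H3K4me3 regions lay at 0 and 1175 bp at 10 and 2 weeks, and its H3K27Ac regions at 2675 and 1475 bp. Wnt5a had H3K4me3 over the TSS at 10 weeks and at 2151 bp at 2 weeks. Gdf1 had its region at chr16:20857701-20861000 and had H3K27Ac over the TSS at 10 weeks. Cers1, named after its value was seen, is listed with the same region and TSS, so these marks cannot be assigned to Gdf1 alone. Inha, the alpha subunit of inhibin, had H3K4me3 over the TSS at 10 weeks. Tgfb2, Bmp6, Wnt4 and Wnt11 each had a single other region within 5 kb, an H3K4me3 region at 2380, 4220 and 238 bp at 10 weeks for the first 3 and at 1142 bp at 2 weeks for Wnt11.

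Receptors and channels were the largest groups by number. Of 219 G protein-coupled receptors outside olfaction, 33 (15.1%) were 10-wk-only, and 17 of these (51.5%, against 50.5% of all 10-wk-only genes) had H3K4me3 within 5 kb at 10 weeks. Besides Glp1r and Gipr, they included Chrm4, a muscarinic receptor with H3K4me3 at 630 bp at 10 weeks and H3K27Ac over the TSS at 2 weeks. Adgrg1, an adhesion receptor abundant in islets, had H3K4me3 at 328 bp at 10 weeks and H3K27Ac at 728 bp at 2 weeks. Adgrb3, Gpr158 and Gpr4 had H3K4me3 within 5 kb at both ages, and Adora2a had H3K4me3 at 3473 bp and H3K27Ac at 2173 bp at 10 weeks. Of the 5 somatostatin receptors listed, 3 were 10-wk-only, Sstr3, Sstr4 and Sstr5, and of the 4 adenosine receptors 3, Adora1, Adora2a and Adora2b. These small families were picked because they held several members, and for Sstr5 the TSS could not be placed within the region.

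Of 236 ion channel genes, 32 (13.6%) were 10-wk-only and 11 of these (34.4%, against 50.5%) had H3K4me3 within 5 kb at 10 weeks. Cacna1g, a T-type calcium channel, had its region at chr10:82196401-82197900, H3K27Ac at 220 bp and H3K4me3 at 582 bp at 2 weeks. Kcnd3 and Kcnab2, a potassium channel pore subunit and an auxiliary subunit, had H3K4me3 over the TSS at 10 weeks, as did Trpc1. Chrnb2 had H3K4me3 over the TSS at 2 weeks. Gria2 had H3K4me3 within 5 kb at both ages, and Gabrp had H3K4me3 at 2465 bp and H3K27Ac at 2665 bp at 10 weeks. Kcnip1, an auxiliary subunit listed with more than 1 TSS, had H3K27Ac at 0 bp at 10 weeks. Of 355 solute carriers, 28 (7.89%, against 5.53% of all genes) were 10-wk-only. With a 2-wk limit of 20 kb this count was 23 (6.48%, against 4.80% of all genes). Slc6a6, the taurine transporter, had H3K4me3 over the TSS at 10 weeks and at 419 bp at 2 weeks, and Slc4a11 had H3K27Ac over the TSS at 2 weeks. Slc2a6 had H3K4me3 over it at 10 weeks.

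Protocadherins, adhesion molecules encoded in dense clusters, held 10 of 49 (20.4%). Pcdhga5, Pcdhga8, Pcdhga9 and Pcdhga11 are in the gamma cluster on chromosome 18, with their 4 regions starting between 30840601 and 30904101, and 3 genes of the alpha cluster had regions starting between 29986601 and 30004301. These are neighbours and not independent observations. Pcdhga9 had H3K27Ac at 4705 bp at 10 weeks and H3K4me3 at 3005 bp at 2 weeks. Pcdh8 and Pcdh9 had a differential H3K4me3 region over the TSS at 10 weeks, and no other listed region of either mark within 5 kb.

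Few housekeeping genes were 10-wk-only. Beside the ribosomal protein and respiratory chain lists at 0, the proteasome list held 1 of 49 (2.04%), and this was Psmb8, a subunit of the immunoproteasome. The chromatin lists are too short to be set apart from the 5.53% of all genes. The list of Polycomb repressive complex 2 and H3K27 demethylase genes held 0 of 10, that of H3K4 methylation and H3K27 acetylation enzymes 0 of 20, and that of Polycomb repressive complex 1 subunits 1 of 22 (4.55%), Pcgf5. Olfactory receptors, silent outside sensory tissue, held 27 of 1194 (2.26%), below the 5.53% of all genes. H3K4me3 lay within 5 kb at 10 weeks in 2 of these 27 (7.41%), against 3.35% of the whole list.

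Markers of the other cells of the pancreas were also among the genes. Endothelial markers held 4 of 18 (22.2%, against 5.53% of all listed genes), namely Kdr, Robo4, Sox18 and Vwf. Mesenchymal markers held 4 of 21 (19%), namely Col1a1, Fbn1, Pdgfrb and Thy1. Duct cell markers held 2 of 12 (16.7%), Cldn4 among them, and neural and glial markers 2 of 19 (10.5%), Nefm and Ngfr. Acinar markers held 1 of 24 (4.17%), Clps, and immune markers 1 of 27 (3.70%), Tnf, both below the 5.53% of all listed genes. H3K27me3 regions at both ages were listed for 5.56% of endothelial, 5.26% of neural and glial and 4.17% of acinar markers, against 1.21% of all listed genes. This share was 0 for duct, immune and mesenchymal markers. With a 2-wk limit of 20 kb the 10-wk-only count was 1 for the duct list (8.33%) and 0 for the acinar list, against 4.80% of all genes. The levels of these genes are not in the table, so the cell composition of the islet samples was not tested. Robo4 and Tnf were listed with more than 1 TSS, and distances of different marks may refer to different starts in such genes.

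The other marks were not used by the rule. Within 5 kb of the TSS, a differential H3K4me3 region was listed at 10 weeks in 486 of the 962 genes (50.5%), against 57.4% of all listed genes. A 10-wk H3K27Ac region was listed within this distance in 145 genes (15.1%), against 25.0%. At 2 weeks, H3K4me3 was listed in 155 genes (16.1%, against 12.6%) and H3K27Ac in 205 (21.3%, against 26.3%). The 10-wk-only genes thus lay below all listed genes for 3 of the 4 and above them for H3K4me3 at 2 weeks. In 335 genes (34.8%, against 32.6% of all) none of the 4 lay within 5 kb, and in 9 (0.936%, against 1.81%) all 4 did.

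Where the regions lay relative to the TSS also differed by mark. An H3K4me3 region covered the TSS at 10 weeks in 148 of the 10-wk-only genes (15.4%, against 29.5% of all listed genes). Of the genes with H3K4me3 within 5 kb, this was 30.5%, and 36.0% had it between 1 and 5 kb, while over all listed genes the corresponding shares were 51.3% and 21.4%. H3K27Ac covered the TSS at 10 weeks in 37 genes (3.85%, against 3.65%), but lay between 1 bp and 1 kb in 35 (3.64%, against 12.3%). At 2 weeks, H3K4me3 covered the TSS in 35 genes (3.64%, against 1.86%) and H3K27Ac in 109 (11.3%, against 11.0%). Both H3K4me3 and H3K27Ac within 5 kb at 10 weeks were found in 94 genes (9.77%, against 20% of all). No test of these shares was made, since genes are not replicates.

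**Figure D4:**
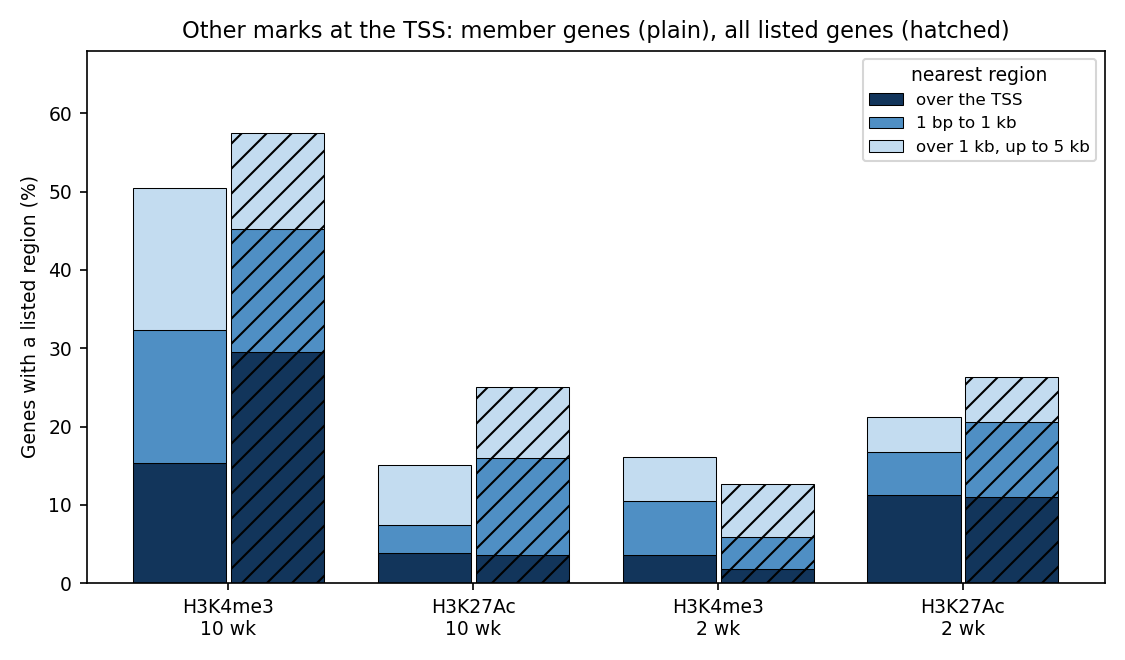
Percent of genes with a listed differential region of H3K4me3 or H3K27Ac within 5 kb of the TSS, by age, for the 962 10-wk-only genes (plain bars) and all 17411 listed genes (hatched bars). Shades give the position of the nearest region, darkest for regions over the TSS, and the dark part for H3K4me3 at 10 weeks is 15.4% against 29.5%.

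The 211 genes with H3K27me3 regions at both ages had the other marks in the same order of frequency. Within 5 kb, H3K4me3 was listed in 51.7% of them at 10 weeks and 24.2% at 2 weeks, and H3K27Ac in 18.0% and 31.8%. The corresponding 10-wk-only shares were 50.5%, 16.1%, 15.1% and 21.3%. The position of H3K4me3 at 10 weeks was also alike in the 2 sets. It covered the TSS in 17.1% of the 211 genes, against 15.4% of the 10-wk-only genes. Of the genes with it within 5 kb, these were 33.0% and 30.5%. Both sets share the 10-wk H3K27me3 libraries, and the comparison was not tested.

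All 3 marks differed over the same TSS at 10 weeks in 14 genes (1.46%, against 1.48% of all listed genes with H3K4me3 and H3K27Ac there). They were Arhgdib, Caly, Cldn3, Epn3, Lgi3, Lhfpl5, Mdfi, Ndrg2, Prkag3, RT1-Ba, Srd5a1, Sstr4, Syt13 and Washc1. In Sstr4, a receptor for somatostatin, the H3K27me3 region was chr3:142738701-142739800, and the H3K4me3 and H3K27Ac regions began at 142739701 and 142739401. In Cldn3, a claudin of epithelial tight junctions, the 3 regions began at 21831701, 21832601 and 21832301 on chromosome 12, and an H3K27Ac region was also listed 1913 bp away at 2 weeks. RT1-Ba, a class II histocompatibility gene, Arhgdib and Lhfpl5 had an H3K4me3 region within 5 kb at 2 weeks, 1626, 3578 and 965 bp away. The other 10 had no region of either mark within 5 kb at 2 weeks. For Caly the start implied by its distances lay outside the H3K27me3 region, so its marks may belong to different starts.

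Some regions were neighbours, and the genes of these runs were named after their values were seen. In 38 runs, 86 regions began within 50 kb of the next. They included Krt83, Krt81 and Krt85, and Krt72, Krt73 and Krt2, on chromosome 7, Psmb8, RT1-DOb and RT1-Ba on chromosome 20, and Lst1, Tnf and RT1-DMb on the same chromosome. Of 45 listed keratin genes, 13 (28.9%) were 10-wk-only, a family named after its values were seen, and 3 of them share the single region of Krt31. Claudins held 4 of 22 (18.2%), Cldn1, Cldn3, Cldn4 and Cldn14, a family chosen in the same way.

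Genes of this kind were found on every autosome, with a share of listed genes from 4.05% on chromosome 11 to 7.02% on chromosome 15. The X chromosome held none, 0 of 587 listed genes. The position of 2 regions, 1 of them over Bex1 (named after its value was seen), can be read as more than 1 autosome and as no position on X, so these stand under no chromosome. For the Bex1 region an end of 116567800 was derived through a neighbouring gene, which goes with its reading on chromosome 1. On X, differential H3K27me3 regions were few and were listed farther from genes in general. At 10 weeks 97 regions were listed for 586 X genes, against 11777 for 16818 genes on other chromosomes. Of 586 genes whose regions were all on X, 8 (1.37%) had a 10-wk H3K27me3 region within 5 kb, against 20.7% of genes on other chromosomes, and the median distance was 434 kb against 32.9 kb. A single X gene had a 10-wk region over the TSS, and it also had a 2-wk region within 5 kb. Other marks were listed less often near X genes too. H3K4me3 at 10 weeks lay within 5 kb in 37.9% of them against 58.0%, and H3K27Ac at 10 weeks in 13.3% against 25.4%. At 2 weeks, when both sexes were pooled, H3K27me3 lay within 5 kb in 3.24% against 8.69%, and H3K27Ac in 10.4% against 26.8%.

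**Figure D5:**
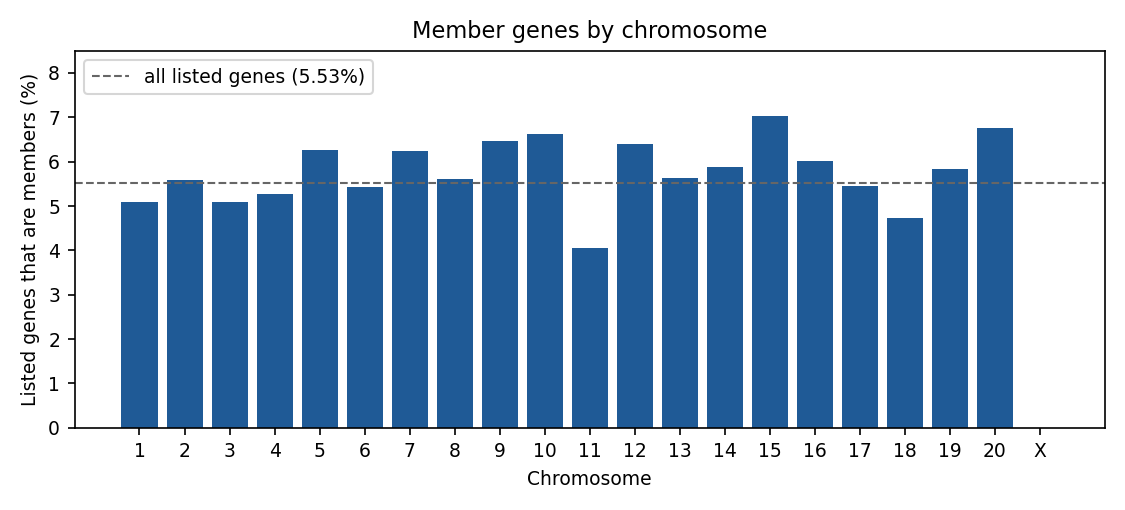
Percent of the listed genes on each chromosome that had a 10-wk-only H3K27me3 region over the TSS, with the 5.53% of all listed genes as a dashed line. Autosomes lie between 4.05% and 7.02%, and X is at 0.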

How the data were processed

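Chromatin of pooled islets was immunoprecipitated in 34 ChIP libraries, with 27 inputs. Per the methods, the authors trimmed reads, mapped them to rn6, removed unmapped, multi-mapped and mitochondrial reads, called peaks with MACS2 at a q-value of 0.05 and differential regions with diffReps, whose settings are not given in the sources used here. The methods name STAR as the aligner, the submitters' processing notes Bowtie2, with Trimmomatic 0.32, SAMtools 0.1.19 and MACS2 2.1.0. The deposited table lists, for 17411 genes and 6 contrasts of IUGR with control, the start of the nearest differential regions and their distance to the TSS, on 2 rows per gene. Its 6 columns of log2 fold changes are the authors' own comparison and were not used, so no direction or fold is given. No count per library is given, and depth is unknown.

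Regions were selected with Python 3.11.15 and pandas 2.3.3, after a check on a simulated table, and plotted with Matplotlib 3.10.9. Region ends and TSS positions were derived from starts and distances (923 of 962 genes had 1 TSS within the region, 34 several or 1 outside it, 5 none). Symbols were official in RefSeq (GRCr8, names only) for 875 genes and synonyms for 71. The members and lists were chosen with earlier results of these data known. Genes named are members of the lists (8 per list at most, those with most other regions within 5 kb), genes of regions over 3 genes, genes with all 3 marks over the TSS, and those nearest the limits. Genes without an official symbol were counted but, with an exception stated, not named, and a few are not reported here. Others are said to be chosen after their values were seen.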

Additional observations from a re-analysis of the deposited data

How the results depend on the processing

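The limits of the rule were varied. With a 2-wk limit of 1, 10 or 20 kb the number of regions was 1009, 886 and 818, and 937 when every gene under a region had to qualify. The number of genes was 875 with official symbols only and 923 with genes of 1 TSS. A 10-wk region within 1 kb of the TSS, in place of over it, gave 1561 regions and 1570 genes. The beta cell list held 10 to 12 genes under its other alternatives and 6 at a 2-wk limit of 20 kb, where 5 other lists had a larger share. At that limit the homeobox list held 10 genes, the other islet hormone cell list 1, the duct list 1 and the acinar list 0. The list of SOX, FOX, T-box and GATA genes held 4 there and the solute carriers 23. The alternatives on the number of genes and on the gene lists were added after seeing the data. Counts of other marks followed the distance by construction. H3K4me3 at 10 weeks was listed in 148 genes over the TSS and 311 within 1 kb. H3K27Ac at 10 weeks was listed in 37, 72 and, within 20 kb, 315. H3K4me3 at 2 weeks was listed in 35, 101 and 274 at the same limits, and H3K27Ac at 2 weeks in 109 over the TSS and 335 within 20 kb. Medians of promoter GC and CpG content were not run, because 673 of the 962 genes (70%) matched a kept promoter even with synonyms. No paired analysis was possible because the results come from no test, and replicates could not be left out because no value per library is given.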
